A study of Cavia porcellus with 18 samples.

Results

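The 200 guinea pig genes with the highest RNA polymerase II serine 5 score are described here, out of 19244 genes in the authors' table of CG sites measured by both of the study's bisulfite assays. The table gives each transcript a score of enrichment for polymerase phosphorylated on serine 5 (Pol II PS5). Each gene took the highest score of its transcripts, and the 200 were chosen by this value, with ties broken by gene identifier. Of the other genes, 7100 had a score above 0 and served as the comparison, and 11944 had a score of 0. All of them have at least 1 CG site measured in both assays, because the table holds only such sites.

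The study mapped DNA methylation at enhancers in the hippocampus of 3 guinea pigs (Cavia porcellus), all wild type males aged 12 weeks, with no treatment and no second group. Pol II PS5 ChIP-seq, ChIP-seq of histone H3 monomethylated on lysine 4 (H3K4me1) and bisulfite sequencing of the DNA precipitated with H3K4me1 (ChIP-bisulfite) had 3 libraries each, and reduced representation bisulfite sequencing (RRBS) had 6. RRBS reads DNA near restriction sites whatever its chromatin, while ChIP-bisulfite reads only DNA precipitated with H3K4me1. Each deposited value pools the animals, so no spread between animals can be given and no test over animals was possible.

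RNA polymerase II is phosphorylated on serine 5 of its C-terminal repeats when it starts transcription, and this form accumulates close to transcription start sites. Promoters rich in CG dinucleotides are usually unmethylated in mammals whether or not they are transcribed, while CG sites inside transcribed genes are commonly methylated. H3K4me1 marks enhancers and the flanks of active promoters.

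The 200 scores ran from 10.05 to 45.71 with a median of 11.8, and the 7100 comparison genes from 2.11 to 10.02 with a median of 3.63. These values chose the genes and are given as a description. Of the 200, 11 had a score over 20, 82 had a score over 12 and up to 20, and 107 had a score of 12 or less. At the limit, the genes at ranks 199 and 200 had scores of 10.06 and 10.05, and those at ranks 201 and 202 both had 10.02. The curve falls steeply over the first 10 ranks and then flattens, so the limit at 200 passes through a run of nearly equal scores.

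**Figure D1:**
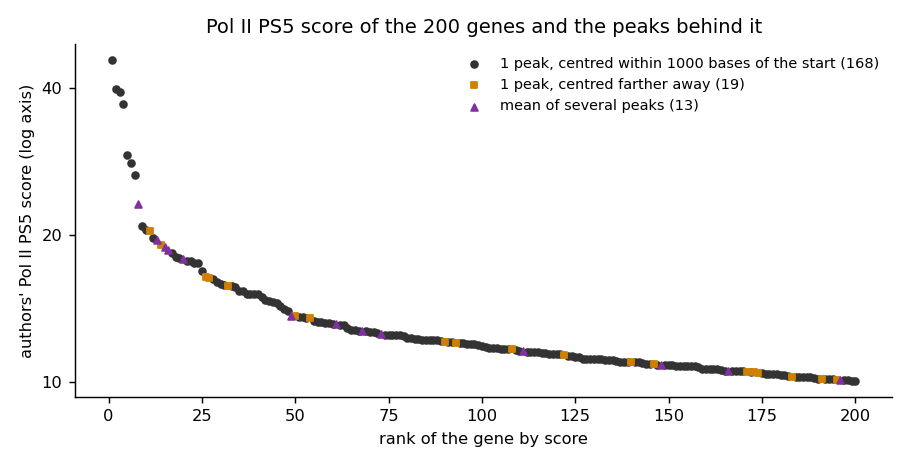
Pol II PS5 score on a log axis against the rank of each of the 200 genes, 1 point per gene, with symbols for the peaks that make up the score. Scores fall from 45.71 at rank 1 to 20.44 at rank 10 and 10.05 at rank 200, and most points are genes scored by 1 peak at the start.

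The highest score, 45.71, belonged to ENSCPOG00000026945 on scaffold_669, with its start at 26667. The files do not pair identifiers with gene names, so the other genes are named by score rank and start site, at positions as the files give them. Ranks 2 and 3, with scores of 39.84 and 39.21, lay 12643 bases apart on scaffold_23, at starts 2057155 and 2044512. Ranks 4 and 6, with scores of 37.08 and 28.13, lay on the short scaffold_3088 at starts 3175 and 247. These last genes are listed with the same 27 CG sites, so their methylation values are not independent of each other. The 200 genes lay on 92 scaffolds, at most 13 of them on 1 scaffold (scaffold_9), and 12 had the start of another of the 200 within 20000 bases.

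The peaks behind the scores could be traced in the authors' Pol II PS5 peak list. A gene's score equalled the score of 1 peak, or the mean of a run of neighbouring peaks, for 7233 of 7300 scored genes (99.1%). For 187 of the 200 it was a single peak, and for 168 of these the peak was centred within 1000 bases of the start. The median centre lay at -167.5 bases from the start, where a negative distance is upstream. Among the comparison genes 62.5% were scored by 1 peak and 36.5% by the mean of several. The 200 are therefore mainly genes with 1 strong peak at the start, and a gene with an equally strong start peak and weaker peaks further on has a lower score.

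A Pol II PS5 peak lay within 1000 bases of the start in 173 of the 200 genes (86.5%), 50% of the comparison genes and 2.84% of genes with a score of 0. Over all genes this share was 21.1%, and the score that chose the 200 is made from the same peaks. An H3K4me1 peak covered the start of 146 of the 200 (73.0%), against 75.3% of the comparison genes and 68.0% of all genes, so the start itself was covered about as often. Within 1000 bases of the start an H3K4me1 peak was present in 198 of the 200, against 93.3% of the comparison genes and 83.4% of genes with a score of 0. The start of another gene on the opposite strand lay within 1000 bases upstream of 9 of the 200 (4.50%), against 2.86% of the comparison genes and 2.45% of all genes. These counts come from annotation and peak positions, and no test was made of them.

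Promoter sites were defined as CG sites within 1000 bases of a listed start, and gene-body sites as those more than 1000 bases downstream. Gene ends were not used, so gene-body sites can include sites past the end of a gene or near the start of another gene. Of the 200 genes, 104 had promoter sites (589 sites) and 165 had gene-body sites (1013 sites), 79 had both and 10 had neither. Only 55 genes had 3 or more promoter sites and 105 had 3 or more gene-body sites. The promoters of the other 96 genes had no site shared by the assays, and 77 of these had both an H3K4me1 peak and an RRBS position within 1000 bases. A site enters only if H3K4me1 precipitated it, so the values describe the H3K4me1-marked part of each promoter or gene-body region. Errors below are SDs or 95% intervals across genes and do not cover the spread between animals.

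Promoters of the 200 genes had low methylation in both assays, below those of the comparison genes. The mean promoter level in ChIP-bisulfite was 16.7% (SD 28.0, 104 genes, median 0.62%), against 25.7% (SD 34.5, 3187 genes, median 5.50%) in the comparison genes and 38.4% (median 25%) in genes with a score of 0. The mean RRBS level at the same sites was 18% (SD 28.0, median 4.62%), against 28.9% (SD 32.5, median 14.5%) and 43.0% (median 38.3%). The difference from the comparison genes was -8.98 points in ChIP-bisulfite (95% interval -14.5 to -3.46) and -10.9 points in RRBS (-16.4 to -5.38). Both intervals exclude 0, but the SDs within each group are larger than the differences and the groups overlap over the whole range from 0% to 100%. With a promoter window of 500 bases the differences were -4.79 points (half-width of the 95% interval 7.78) and -6.56 points (8.16), and with the 100 highest-scoring genes -6.96 points (8.58) and -3.76 points (9.08), so under these settings the intervals include 0 in both assays.

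Counted gene by gene, 75 of the 104 promoters (72.1%, exact binomial 95% interval 62.5 to 80.5) were at or under 20% in ChIP-bisulfite. The share was 62.0% in the comparison genes and 54.4% over all genes with promoter sites. In RRBS 74 of the 104 (71.2%) were at or under 20%, against 55.2% of the comparison genes and 46.4% of all genes. The deposited whole percent was 0 at every promoter site of 51 of the 104 genes in ChIP-bisulfite (49.0%) and of 42 in RRBS (40.4%). The shares were 43.2% and 28.7% in the comparison genes and 37.1% and 23.0% over all genes. At the other end, 8 promoters were at or over 80% in ChIP-bisulfite and 8 in RRBS, or 7.69% each, against 13.7% and 11.9% of the comparison genes and 19.3% and 17.8% of all genes. Low promoters were thus the majority, with a small group of methylated ones beside them.

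**Figure D2:**
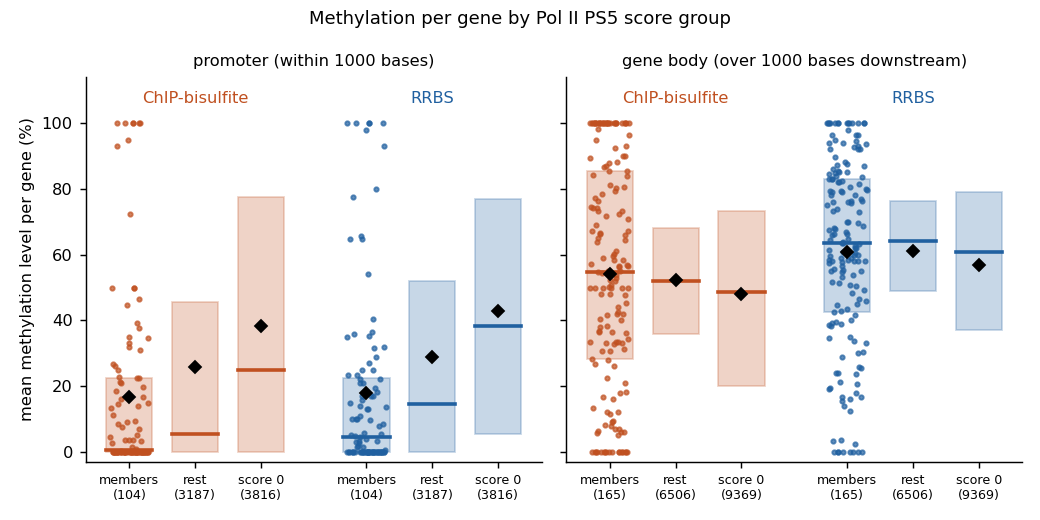
Mean methylation level per gene (%) at promoters (left) and in gene bodies (right) for the 200 highest-scoring genes, the remaining genes with a score and genes with a score of 0, in ChIP-bisulfite (orange) and RRBS (blue). Points are single genes of the 200, boxes span the quartiles, lines are medians and diamonds are means; promoter medians rise from 0.62% to 5.50% to 25% in ChIP-bisulfite, while gene-body medians lie between 48.5% and 54.9%.

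The difference was smaller among genes with a Pol II PS5 peak at the start. Among genes with a peak within 1000 bases of the start, promoters of the 200 were at a mean of 14.9% in ChIP-bisulfite (SD 26.0, 95 genes), against 19.8% (SD 30, 2017 genes) in the comparison genes. In RRBS the means were 15.9% (SD 25.5) and 21.1% (SD 27.9). The differences were -4.85 points (95% interval -10.2 to 0.542) and -5.25 points (-10.5 to 0.0132), so both intervals reach 0. The few promoters of the 200 without such a peak, 9 genes, had means of 36.2% (SD 41.2) in ChIP-bisulfite and 40.3% (SD 43.2) in RRBS, close to the 36.0% and 42.2% of the 1170 comparison genes without one.

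A start peak as strong as those of the 200 also occurred outside them. A peak with a score of at least 10.05 lay within 1000 bases of the start of 61 comparison genes, 57 of which had a score averaged over several peaks, and their median score was 6.61. The 30 of these with promoter sites had means of 12.5% (SD 22.5) in ChIP-bisulfite and 14.1% (SD 21.9) in RRBS. Of these 30, 23 were at or under 20% in ChIP-bisulfite and 22 in RRBS. The 95 genes of the 200 with such a peak and promoter sites averaged 14.9% and 15.9%. The differences of 2.38 points (95% interval -7.21 to 12.0) and 1.79 points (-7.57 to 11.2) have intervals that include 0.

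The low level followed the distance from the start. From 1000 to 500 bases upstream, sites of the 200 averaged 10.3% in ChIP-bisulfite and 14.1% in RRBS over 41 genes, against 28.0% and 31.0% in the comparison genes. From 500 to 250 bases upstream they averaged 6.70% and 9.72% over 26 genes, against 17.4% and 21.2%. In these upstream bins the 200 were lower in both assays. In the last 250 bases before the start the means were 17.9% and 20.1% over 15 genes, against 19.9% and 22.8%. In the first 250 bases after the start they were 16.1% and 19.8% over 22 genes, against 22.7% and 29.0%. From 250 to 500 bases downstream they were 20.9% and 12.3% over 17 genes, against 18.4% and 21.2%, lower in the 200 in RRBS but not in ChIP-bisulfite. From 500 to 1000 bases downstream they were 27.8% and 27.3% over 47 genes, against 29.7% and 31.6%. Beyond 1000 bases both groups were at similar, higher levels, with 53.1% and 59.5% from 1000 to 2000 bases downstream in the 200 and 54.4% and 58.6% in the comparison genes.

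**Figure D3:**
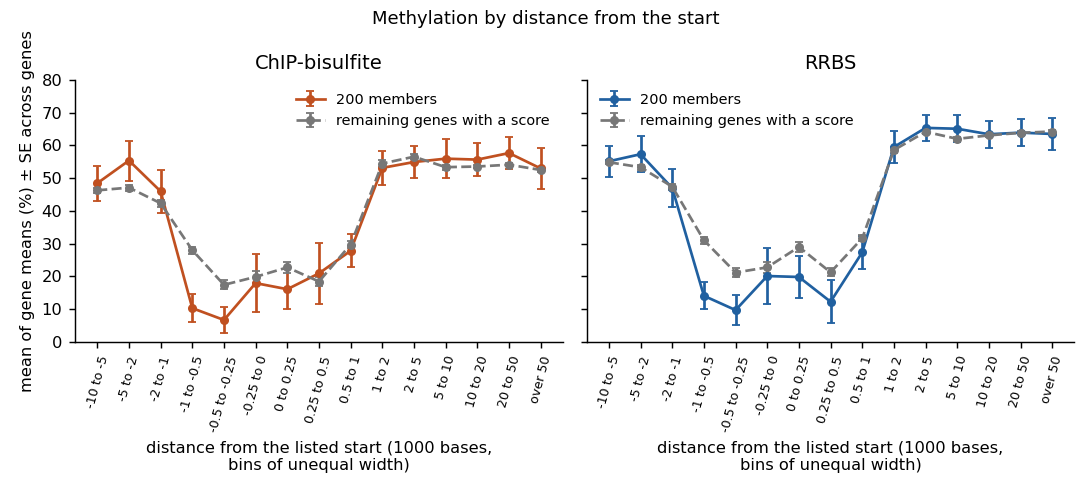
Mean methylation level (%, mean of gene means with SE across genes) against distance from the listed start in bins of unequal width, for the 200 genes (solid) and the remaining genes with a score (dashed), in ChIP-bisulfite (left) and RRBS (right). Both groups dip within 1000 bases of the start, and the gap between them is widest between 1000 and 250 bases upstream.

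Sites inside a Pol II PS5 peak were low in both groups. In the promoters of the 200, 228 sites of 34 genes lay inside a peak, and the gene means averaged 8.64% (SD 24.7) in ChIP-bisulfite and 11.4% (SD 26.6) in RRBS. In the comparison genes, the means over 438 genes were 6.96% (SD 21.1) and 8.08% (SD 19.5). The differences of 1.68 points (95% interval -6.87 to 10.2) and 3.31 points (-5.82 to 12.4) have intervals that include 0.

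Within the 200, the genes with the very highest scores did not have the lowest promoters. In the 26 genes of ranks 1 to 50 with promoter sites, promoters averaged 27.0% (SD 36.1, median 9.23%) in ChIP-bisulfite and 34.8% (SD 36.6, median 19.0%) in RRBS. In the 78 genes of ranks 51 to 200 the means were 13.3% (SD 24.1, median 0) and 12.4% (SD 22.1, median 1.67%). This division at rank 50 was chosen after the values were seen. At or under 20% were 16 of 26 in ChIP-bisulfite and 13 of 26 in RRBS for ranks 1 to 50, and 59 and 61 of 78 for ranks 51 to 200. A level of 50% or more in both assays occurred in 5 of the 26 and 3 of the 78. With a Pol II PS5 peak at the start required, ranks 1 to 50 still averaged 22.2% and 28.7% over 23 genes, against 12.6% and 11.8% over 72.

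Below the limit the level rose again with falling score. Promoters of ranks 201 to 400 averaged 18.3% in ChIP-bisulfite and 19.3% in RRBS, and those of ranks 3201 to 7300 averaged 29.5% and 34.3%. Across the 3187 comparison genes Spearman's rho between score and promoter level was -0.135 in ChIP-bisulfite and -0.177 in RRBS. Across the 104 genes it was 0.0809 and 0.222. Genes share animals and libraries, so these coefficients are descriptions.

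**Figure D4:**
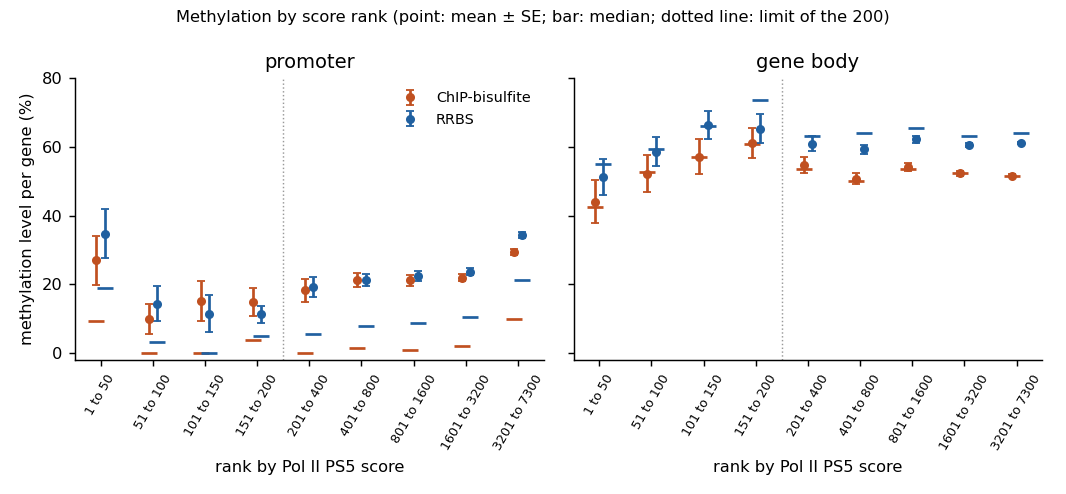
Methylation level per gene (%) by score rank at promoters (left) and in gene bodies (right), with means and SE across genes as points and medians as bars, in ChIP-bisulfite (orange) and RRBS (blue); the dotted line marks the limit at rank 200. Promoter means are 27.0% and 34.8% at ranks 1 to 50, at most 15.1% at ranks 51 to 200, and 29.5% and 34.3% at ranks 3201 to 7300.

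The top 10 genes show how thin and mixed the evidence per gene is. Rank 1 had no promoter site and 1 gene-body site, at 100% in ChIP-bisulfite and 83% in RRBS. Rank 2 had only 2 sites, both further than 1000 bases upstream, with means of 81.0% and 91.0%. Rank 3 had 2 promoter sites, both at 0 in each assay. Of these first 3 ranks, only rank 3 thus had a measured promoter, and it was unmethylated at its 2 sites.

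Rank 4 had 27 gene-body sites with means of 5.04% (SD 13.8 across sites) in ChIP-bisulfite and 24.0% (SD 23.0) in RRBS. Rank 6, which shares those sites, had 6 promoter sites with means of 22.7% (SD 22.5) and 54.2% (SD 29.8). On this scaffold ChIP-bisulfite was below RRBS. Rank 5, on scaffold_32 at start 19427322, had 5 gene-body sites with means of 13.4% and 23.8% and 7 upstream sites at 0 in both assays. Rank 83 has its start 9837 bases further on, at 19437159 on the opposite strand. It had 4 promoter sites with means of 14.5% and 4.75% and 1 gene-body site at 9% and 100%. The levels and read depths of these match the 5 gene-body sites of rank 5. Both genes thus appear to share them, and the low level is mostly that of the promoter of rank 83. Rank 7, on scaffold_3 at start 62227807, had 1 promoter site at 0 in both assays and 4 gene-body sites with means of 31.3% and 51.5%. Rank 5 had no promoter site, and rank 7 was low at its 1 promoter site and higher at its gene-body sites.

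Rank 8, on scaffold_10 at start 20116136, took its score of 23.19 from 4 peaks. It had 2 transcripts and 1 promoter site, at 100% and 80%. That site lay in an H3K4me1 peak at 20251422 to 20256720, so it belongs to another listed start than the one given here. Its 31 gene-body sites had means of 47.9% (SD 38.1) and 51.8% (SD 30.7). RRBS depth at these gene-body sites was a median of 211 reads and at most 76312. Rank 10, on scaffold_32 at start 15406036, had 9 upstream sites with means of 22.2% and 29.6% and no other site.

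Rank 9, ENSCPOG00000024729 on scaffold_13 at start 48355729, had the most promoter sites. Its 136 promoter sites averaged 11.3% (SD 20.7) in ChIP-bisulfite and 16.9% (SD 27.0) in RRBS, with 11 to 653 RRBS reads per site. Its 35 gene-body sites averaged 67.3% (SD 20.4) and 78.2% (SD 20.2), and its 253 upstream sites 71.5% and 75.2%. This gene thus had a low promoter between methylated flanks in both assays. Rank 37, on scaffold_537 at start 3259, had 67 promoter sites at 9.46% (SD 19.6) and 22.2% (SD 16.2), and 28 gene-body sites at 7.96% and 17.8%. Its gene-body sites were as low as its promoter. The gene runs towards the scaffold end at position 0, so these sites lie close to the start. An H3K4me1 peak from 187 to 6576 spans the promoter and most of that stretch, and no more distant part of a gene body was measured.

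Ranks 9 and 37 together held 734 of the sites of the 200 genes (30.9%), against a median of 6 sites per gene. They also held 236 of the 293 sites with over 100 RRBS reads. The median RRBS depth of the sites of the 200 genes was 23 reads, and it was 18 without these genes, against 17 in the comparison genes. Since each gene counts once in the means over genes, leaving both out moved the promoter differences only to -8.85 points in ChIP-bisulfite and -10.9 in RRBS.

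The remaining genes with many promoter sites were also mostly low. Rank 25, on scaffold_32 at start 15391358, had 19 promoter sites at 9.0% (SD 22.5) and 12.9% (SD 26.1), and rank 44, on scaffold_183 at start 244457, had 17 at 0.24% and 3.88%. The exception was rank 20, ENSCPOG00000021373 on scaffold_6 at start 3016752, with 38 promoter sites at 37.8% (SD 32.8) in ChIP-bisulfite and 65.6% (SD 21.4) in RRBS. Its single sites ran from 0% to 100% in ChIP-bisulfite and from 0% to 97% in RRBS.

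Methylated promoters were a minority where a Pol II PS5 peak was at the start. At or over 80% in ChIP-bisulfite were 6 of the 95 promoters with such a peak (6.32%) and 2 of the 9 without one. Rank 8, measured near another listed start, was among these 2. The shares in the comparison genes were 8.78% with such a peak and 22.2% without one. Among promoters with 3 or more sites, the highest mean of both assays was at rank 22, which has a start peak. Rank 22, ENSCPOG00000022681 on scaffold_229 at start 367372, had 3 promoter sites at 100% in ChIP-bisulfite and a mean of 98.0% (SD 3.46) in RRBS, with 15 to 16 reads, and a peak centred at -26.5 bases from the start. Rank 24, on scaffold_36 at start 353430, had 6 sites at 72.3% (SD 42.0) and 64.8% (SD 11.5), with its peak centred at -203 bases. Rank 87, on scaffold_3 at start 1034039, had 5 sites at 39.2% (SD 51) and 77.6% (SD 19.4). Rank 11, on scaffold_101 at start 2196949, had 10 sites at 44.7% (SD 46.5) and 64.7% (SD 11.7), and its peak was centred 9886 bases downstream, so it is a promoter without a start peak. In a bulk tissue, a level between 0% and 100% can come from different cells or from the alleles of each cell, which cannot be told apart here.

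No difference in mean gene-body methylation from the comparison genes was resolved. The mean gene-body level was 54.0% in ChIP-bisulfite (SD 34.0, 165 genes, median 54.9%), against 52.2% (SD 26.6, 6506 genes, median 51.9%). In RRBS it was 60.7% (SD 28.5, median 63.5%), against 61.1% (SD 22.9, median 64.0%). The differences were 1.89 points (95% interval -3.34 to 7.12) and -0.323 points (-4.71 to 4.07), and both intervals include 0. Genes with a score of 0 had means of 48.1% and 56.9%.

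The gene bodies of the 200 were more spread out than those of the comparison genes, and about as spread out as those of genes with a score of 0, whose SDs were 33.3 and 28.4. In ChIP-bisulfite 36 of 165 (21.8%) were at or under 20%, against 12.6% of the comparison genes and 20.1% of all genes, and 48 (29.1%) were at or over 80%, against 15.7% and 19.2%. In RRBS the counts were 20 (12.1%) at or under 20%, against 6.62% of the comparison genes and 10.9% of all genes, and 50 (30.3%) at or over 80%, against 19.5% and 22.2%. A median of 3 gene-body sites lay behind the 200 and 6 behind the comparison genes, and whether fewer sites per gene widened the spread was not tested.

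Single gene bodies covered the whole range. Rank 46, on scaffold_9 at start 50850877, had 5 gene-body sites at 98.2% (SD 4.02) and 89.6% (SD 9.94), and rank 117, on scaffold_17 at start 36952312, had 5 at 96.4% (SD 8.05) and 85.4% (SD 17.6). Rank 125, on scaffold_16 at start 2695937, was methylated throughout, with 7 gene-body sites at 87.0% and 86.9% and its 1 promoter site at 100% in both assays. Rank 100, on scaffold_11 at start 22140921, had 6 gene-body sites at 0 in both assays, each with a depth of 10 RRBS reads. Rank 57, on scaffold_38 at start 20572010, had 6 at 9.50% (SD 20.9) and 12.5% (SD 25.6), and rank 17, on scaffold_2 at start 10919028, had 8 at 8.25% (SD 20.3) and 15.6% (SD 31.3). By rank, gene-body means rose from 44.1% and 51.4% at ranks 1 to 50 to 61.3% and 65.4% at ranks 151 to 200, while ranks 201 to 400 were at 54.9% and 61.0%.

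Within the 79 genes that had both kinds of site, the gene body was usually above the promoter. It was higher in 61 of 79 in ChIP-bisulfite (77.2%), against 72.3% of 2814 comparison genes and 64.4% of all genes with both. In RRBS it was also higher in 61 of 79, against 75.8% of the comparison genes and 67.5% of all. It was higher in both assays in 55 genes (69.6%), against 64.9% of the comparison genes and 55.4% of all. It was lower in both in 10 (12.7%), against 14.8% and 20.6%. The mean gene-body excess was 39.0 points in ChIP-bisulfite (SD 43.7) and 42.9 points in RRBS (SD 42.0), against 24.9 (SD 43.6) and 30.2 (SD 39.9) in the comparison genes. Promoters of these genes averaged 17.0% in ChIP-bisulfite and 16.8% in RRBS, against 26.2% and 29.1%, and their gene bodies 55.9% and 59.7%, against 51.1% and 59.3%.

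Upstream sites, more than 1000 bases before the start, were at 49.9% (SD 37.0, 95 genes) in ChIP-bisulfite and 53.4% (SD 33.0) in RRBS. The comparison genes were at 44.7% and 51.8%. The differences were 5.12 points (95% interval -2.39 to 12.6) and 1.68 points (-5.03 to 8.39), and both intervals include 0. The difference resolved at promoters was thus not resolved further upstream.

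The assays were next compared at the same sites. In promoters of the 200 the mean of ChIP-bisulfite minus RRBS was -1.25 points (SD 15.6, 104 genes), against -3.15 (SD 25) in the comparison genes. ChIP-bisulfite was lower in 42 promoters (40.4%, against 44.4% of all genes), equal in 36 and higher in 26 (25%, against 31.5%). In gene bodies the mean was -6.68 points (SD 25.4, 165 genes), against -8.89 (SD 21.7). ChIP-bisulfite was lower in 89 gene bodies (53.9%, against 63.2% of all genes), equal in 18 and higher in 58 (35.2%, against 30.3%). Neither mean differed from that of the comparison genes by more than its interval, with differences of 1.90 points (half-width 3.13) and 2.21 points (half-width 3.92).

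**Figure D5:**
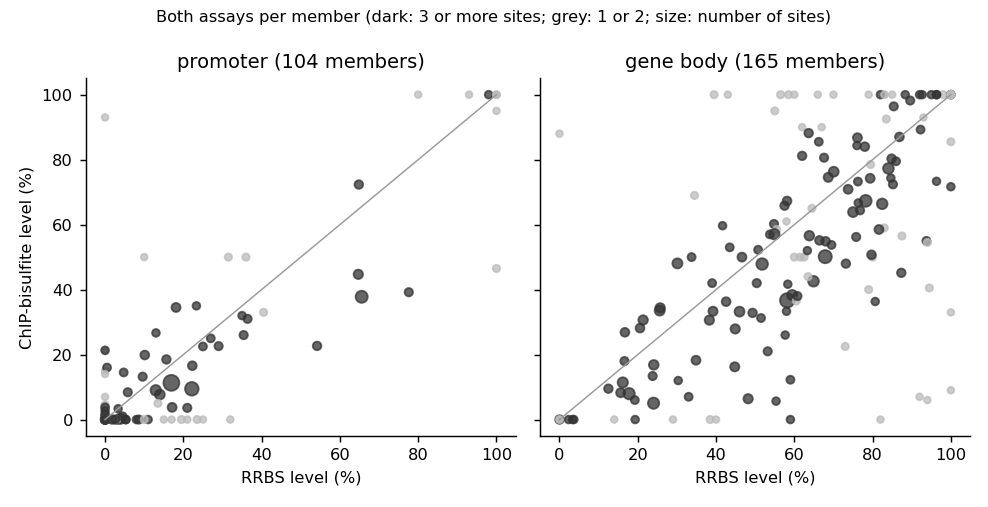
ChIP-bisulfite level (%) against RRBS level (%) per gene among the 200, at promoters (104 genes, left) and in gene bodies (165 genes, right); dark points have 3 or more sites, grey points 1 or 2, size grows with the number of sites, and the line marks equal levels. Promoters gather near 0 in both assays, and gene bodies spread over the whole range with 89 of 165 below the line.

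The gap was also taken within classes of RRBS level. Because the RRBS level defines the class and enters the gap, higher gaps in the lowest class and lower ones in the highest are built in, and only the groups can be compared. At promoter sites with an RRBS level of 20% or less, gene means of ChIP-bisulfite minus RRBS averaged 4.09 points in the 200 and 4.51 in the comparison genes. At 21% to 79% they averaged -15.5 and -8.37 points, and at 80% or more -27.3 and -24.1 points. In gene bodies the same classes gave 12.5, -6.32 and -17.9 points, against 11.2, -6.48 and -20.4. The SEs of the promoter means in the 200 were 1.64, 4.40 and 7.90 points across genes.

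Single promoters with 3 or more sites departed from the mean gap in either direction. ChIP-bisulfite minus RRBS was lowest at rank 87, at -38.4 points, followed by rank 6 at -31.5 points and rank 20 at -27.8 points. It was higher by the most at rank 112, on scaffold_12 at start 38820719, by 21.3 points over 3 sites that were all at 0 in RRBS. At rank 166, on scaffold_47 at start 1461905, it was higher by 16.4 points over 8 sites, and at rank 162, on scaffold_4 at start 35167268, by 15.5 points over 4. Spearman's rho between the assays over genes was 0.676 at promoters and 0.668 in gene bodies.

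The authors' list of sites that differ between the assays held every site at 30% or less by one method and 70% or more by the other. Of the 2372 sites of the 200 genes, 142 were listed as lower in ChIP-bisulfite (5.99%, exact 95% interval 5.07 to 7.02), against 10.5% in the comparison genes and 10.2% of all sites. Listed as higher were 49 (2.07%, interval 1.53 to 2.72), against 2.91% and 2.93%. The intervals cover counting error only, and sites of a gene are not independent. Without ranks 9 and 37 the shares were 6.78% and 2.2%.

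The share of listed sites was also taken by region and among the sites that were methylated in RRBS. Lower sites made up 3.9% of promoter sites and 7.91% of gene-body sites in the 200, against 3.64% and 11.5% in the comparison genes. Of the sites at 70% or more in RRBS, which are those that could be listed as lower, 17.1% were listed in the 200 and 23.6% in the comparison genes. At promoters this order was the opposite, with 36.5% of only 63 such sites against 24.2%. The listed promoter sites of the 200, 23 lower and 8 higher, came from only 13 genes, so the sites behind this order are not independent.

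A last set of values came from the authors' averages over whole H3K4me1 peaks, which use all C positions of a peak and not only the shared CG sites. The 104 peaks that held a promoter site of the 200 genes had mean levels of 30.3% (SD 18.9) in ChIP-bisulfite and 30.2% (SD 24.3) in RRBS. The 3066 peaks of the comparison genes averaged 34.3% (SD 20.4) and 37.5% (SD 25.5). The differences were -4.01 points (half-width of the 95% interval 3.70) and -7.30 points (half-width 4.75). The ChIP-bisulfite columns of this table had been moved back by whole lines. The offset was fitted to bring peak levels closest to the mean ChIP-bisulfite level of the CG sites in each peak. The moved values are therefore not a separate source from the site values. Without that move the difference in this assay was -2.72 points (half-width 4.10). With at least 10 C positions per assay it was -3.47 (3.71), and the interval includes 0 under both settings. Widths were alike, with medians of 3982 and 3933 bases, so such a peak reaches well past the promoter window. ChIP-bisulfite was the lower assay in 48 of 104 peaks (46.2%) and in 55.2% of the peaks of the comparison genes.

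Depth per peak can be given for this table. ChIP-bisulfite had a median of 388 reads per peak over 21 C positions in the 200 and 475 over 28 in the comparison genes, or 18.1 and 17.0 reads per C position. The promoter peak of rank 9 averaged 38.6% over 32495 ChIP-bisulfite reads (Wilson 95% interval 38.0 to 39.1) and 54.6% in RRBS. That of rank 22 was at 100% over 98 reads (interval 96.2 to 100) at only 3 C positions, and 90.7% in RRBS. That of rank 20 was at 48.3% over 2320 reads (46.3 to 50.3) and 70.7% in RRBS. The peaks of ranks 9, 20 and 22 thus lay above the mean of the 104 peaks in both assays. These intervals treat each read at each C position as independent. A read can span several C positions, so they are likely too narrow even for counting error.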

How the data were processed

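Deposited values pooled the 3 animals. The authors gave methylation in whole percent per CG site and as averages per H3K4me1 peak, a Pol II PS5 score per transcript and per peak, and RRBS reads per C position as counts, all with at least 10 reads, per the file headers and values. Reads per peak in the authors' table of averages are counts for ChIP-bisulfite and were treated as estimated counts for RRBS. ChIP-bisulfite reads per site were not used here, since the site table gives levels only. Tools named in the submitters' processing notes, without roles, were Bismark 0.12.5, BSMAP 2.74, methylKit, Bowtie2 2.2.3, SAMtools 1.1, MACS2 and HOMER 4.6. The genome build is not given in the sources used here, and whether positions count from 0 or 1 was not stated.

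Sites were averaged per gene and genes were averaged per group, with Python 3.11.15, pandas 2.3.3 and scipy 1.17.1. Intervals of 95% for differences are normal intervals from the SE across genes, and those for shares are exact binomial. RRBS covered 5053261 C positions, and its reads per position add up to 131062338. A read that spans several C positions is counted at each of them. ChIP-bisulfite columns of the table of averages were displaced against the others over 125619 of 198160 lines (63.4%) and were moved back, after which the repeated entries of 98120 of 98182 peaks (99.9%) were identical, against 18154 (18.5%) before. The offset was fitted to the ChIP-bisulfite levels of the CG sites in each peak. The procedures were tested on simulated data. No value exists per animal, so replicate comparison, pairing and tests between animals could not be made. The 3 RRBS libraries made without bisulfite were not analysed here.

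The 200 genes, the comparisons and the alternatives were chosen with earlier results of these data known. Named genes were the 10 with the highest score, those at the limit, the 5 with most promoter sites, and those with extreme promoter levels (3 or more sites), assay gaps (3 or more sites) or gene-body levels (5 or more sites). Rank 83 was named only as a neighbour of rank 5. Lists of cell type and housekeeping genes by symbol were prepared but not used, because 0 of the 200 identifiers matched a symbol. The tissue label was therefore not checked against marker genes, and no sequence is printed.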

Additional observations from a re-analysis of the deposited data

How the results depend on the processing

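Of 92 alternative values, 80 stayed within the 95% half-width of the reported value and 12 did not. The promoter gap difference and both gene-body level differences, whose intervals include 0, changed sign in some settings. The promoter difference from the comparison genes ran from -8.87 to -4.79 points in ChIP-bisulfite and from -12.1 to -3.29 in RRBS, and was below 0 in all 11 alternatives of each. Its interval came to include 0 in both assays with a 500-base window, with the 100 highest-scoring genes and with start-peak genes only. With the 100 highest-scoring genes in place of 200 it was -3.76 in RRBS, the promoter assay gap difference was -3.19, the gene-body differences were -3.67 in ChIP-bisulfite and -5.76 in RRBS, and the gene-body excess over the promoter in RRBS was 29.2 points. With means over sites the promoter difference in RRBS was -3.29 and the assay gap difference -2.91. Leaving out ranks 9 and 37 gave promoter site means of 16.3% and 21.3% over 386 sites, against 20.6% and 23.7% in the comparison genes. With a promoter window of 2000 bases the gene-body excess was 25.6 points in ChIP-bisulfite and 29.6 in RRBS. With only genes that have a Pol II PS5 peak at the start, the promoter difference in RRBS was -5.25. This alternative, the one without ranks 9 and 37 and the one with sites of at most 100 RRBS reads were chosen after seeing the data. Replacing the authors' list by a limit of 40 points between the assays, 14.3% of the sites were lower and 5.69% higher in ChIP-bisulfite, which counts more sites by construction. These shares were not computed for the comparison genes, so the groups cannot be compared under this limit. For the other values the cause was not tested.

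No paired analysis was possible because the deposited values pool the animals. Depth limits single genes most. A site at 0 with 10 RRBS reads can hide a low level, only 55 of the 104 promoters rest on 3 or more sites, and ChIP-bisulfite reads per site are unknown here. The promoter intervals rest on 104 of the 200 genes.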
